A study of Mus musculus with 12 samples.

Results

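The cytosolic ribosomal protein genes were examined as 1 module in single cells of the mouse paw epidermis. The members were chosen by symbol: Rpl or Rps followed by a digit or by a letter and a digit, with Rpsa, Rplp0, Rplp1 and Rplp2. This gave 86 of the 32285 genes counted. The rule left out 15 symbols, namely 10 Rps6k kinase genes and 5 pseudogenes ending in -ps, and the pseudogenes held UMIs (unique molecular identifiers, 1 per captured transcript) equal to 0.0223% of those of the members. The rule also took Rps19bp1, whose product binds the ribosomal protein Rps19 and is not itself part of the ribosome, and Rpl7l1, a homologue of Rpl7 that acts in ribosome assembly. It missed genes of ribosomal proteins with other names, such as Fau and Rack1.

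Epidermal cells of the glabrous hind paw were collected from wild-type C57BL/6J mice that had been fed a regular diet (RD) with 11% fat or, as HFD, the high-fat diet EnvigoTD88137 with 42% fat, a model of painful diabetic neuropathy. Feeding began at 6-8 weeks of age and lasted 10 weeks, so the mice were 16-18 weeks old. Males and females on each diet made 4 groups of 3 mice, with 1 library of the 10x Genomics 3′ v3.1 chemistry for each mouse, and no group had received a drug or carried an allele other than wild type. The epidermis was separated with dispase and dissociated with TrypLE, and the transcripts were read near their 3′ ends.

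The cytosolic ribosome joins a small subunit, built with the Rps proteins, and a large subunit, built with the Rpl proteins and the acidic stalk proteins Rplp0, Rplp1 and Rplp2. The mRNAs of nearly all of these proteins begin with a run of pyrimidines, the 5′ terminal oligopyrimidine (5′TOP) tract, through which the kinase complex mTORC1 and the protein Larp1 control their translation and stability. In the epidermis, basal keratinocytes divide, move up through the spinous layers and end as cornified cells that lose their nucleus and most of their RNA, while Langerhans cells (LCs) are the resident antigen-presenting cells.

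The start sites of the members the results turn on are shown because the pyrimidine tract is the feature that marks this module. Promoter entries of RefSeq (GRCm38.p6) matched 66 of the 86 members. Each line gives 30 bases, 15 before and 15 from the annotated start on, in the direction of transcription, with the longest run of pyrimidines in capitals.
Rplp0: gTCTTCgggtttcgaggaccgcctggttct
Rps26: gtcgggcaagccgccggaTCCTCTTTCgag
Rps12: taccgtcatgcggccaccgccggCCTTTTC
Rps25: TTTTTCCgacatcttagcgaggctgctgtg
Rpl22l1: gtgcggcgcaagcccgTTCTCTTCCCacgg
Rpl38: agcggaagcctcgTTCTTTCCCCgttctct
Rps27: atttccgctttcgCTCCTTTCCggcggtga
Rpl41: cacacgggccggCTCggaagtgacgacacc
Rpl7l1: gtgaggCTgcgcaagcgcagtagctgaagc
Rps19bp1: cagggcggaagtagCTCgccgcgtgtgggc
These windows lie at chr5:115559452-115559481 (+) for Rplp0, chr10:128626492-128626521 (-) for Rps26, chr10:23787195-23787224 (-) for Rps12, chr9:44407699-44407728 (+) for Rps25 and chr3:28805493-28805522 (+) for Rpl22l1. Those of the others are chr11:114668565-114668594 (+) for Rpl38, chr3:90213634-90213663 (-) for Rps27, chr10:128549154-128549183 (-) for Rpl41, chr17:46782642-46782671 (-) for Rpl7l1 and chr15:80264292-80264321 (-) for Rps19bp1. The run was 10 bases long in Rpl22l1 and Rpl38, 9 in Rps26 and Rps27, 7 in Rps12 and Rps25, where it meets the edge of the window and may be longer, 5 in Rplp0, 3 in Rpl41 and Rps19bp1, and 2 in Rpl7l1. The annotated start is base 16 of each window, and the run held it in Rpl38, Rps27 and Rps19bp1. It ended before the start in Rplp0 (bases 2 to 6), Rps25 (1 to 7), Rpl7l1 (7 to 8) and Rpl41 (13 to 15), and began after it in Rpl22l1 (from base 17), Rps26 (from 19) and Rps12 (from 24).

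A sense-strand pyrimidine run of 8 or more bases lay in these 30 bases in 40.9% of the 66 matched members and in 13.9% of all 27025 genes with an entry. The motif CTTTC, searched on both strands and often part of such a run, lay within the 60 bases around the start in 45.5% of the matched members and 16.9% of all genes. In the whole entry of 300 bases the shares were 83.3% and 60.6%. The motif CCGGAAG, also searched on both strands, lay in the 60 bases in 19.7% of the members against 4.46% of all genes, and in the 300 bases in 39.4% against 9.93%. These are matches of letters in annotated windows and are not evidence that a factor binds there.

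Between 134449247 and 194673581 UMIs were counted per library. The members held 490394337 of 1765336469 UMIs, which is 27.8%. Rplp0 had the most UMIs (14603035, 2.98% of all member UMIs), then Rpl13 (13577076, 2.77%) and Rplp1 (12022783, 2.45%). The fewest were those of the paralogues Rpl39l (325 UMIs), Rpl3l (194) and Rpl10l (2), and these 3 were the only members under 1000 UMIs. Filters on genes and mitochondrial UMIs kept 126375 of 140392 barcodes as cells, and 2492 of 137882 distinct barcode sequences occurred in more than 1 library, with 15 to 70 shared between any pair. For 11 members, more than 10% of the 60-base windows in the last 300 transcript bases also occurred in another gene. Rps27rt (88.0%, shared with Rps27), Rpl35 (62.8%), Rpl10 (48.7%) and Rps27 (39.3%) were the most affected, which makes their counts less certain. The headers name Cell Ranger 6.1.0 in every male library and 7.2.0 in every female one, and sex and counting software cannot be told apart.

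Cells of each sex were clustered without the members, so the ribosomal protein genes did not define the classes. All 8 basal markers were past the threshold in the basal cluster of each sex, all 8 LC markers in the LC-like cluster and all 10 proliferation markers in the proliferating cluster. The suprabasal or spinous class (8 to 10 of 10 markers, from a pair of clusters in each sex), terminally differentiated keratinocytes (10 of 10 in males, 9 of 10 in females) and migratory keratinocytes (6 of 7) were likewise named from markers. A large keratinocyte cluster with only 1 or 2 suprabasal markers was left unnamed and is called Chchd10-led after a leading gene, a name given after the data were seen. Other unnamed clusters, Dynap-led in both sexes (1673 male and 1782 female cells) and Tubb3-led in males (1637 cells), were left out of the 7 classes compared. The Dynap-led clusters had 6 of 8 basal markers past the threshold in males and 3 of 8 in females. The mean log2 fold change of the basal markers was 0.349 and 0.0107 there, against 1.99 and 1.86 in the basal clusters. The share of UMIs from the members was 32.8% ± 1.26 in male and 26.7% ± 0.388 in female Dynap-led cells and 30.7% ± 1.79 in Tubb3-led cells (SD, n = 6 each). Nearly all Tubb3-led cells had doublet scores among the highest of their library. These were 413 of 431, 454 of 487 and 192 of 222 cells in RD males. In HFD males they were 67 of 71, 185 of 199 and 213 of 227.

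The members took the largest part of the transcriptome in basal and Chchd10-led keratinocytes and the smallest in terminally differentiated ones. In males, their share of all UMIs in basal cells was 36.9, 36.0 and 33.1% in the 3 RD mice and 34.5, 34.7 and 35.5% in the 3 HFD mice, a mean of 35.1% ± 1.34 (SD, n = 6). In females, the basal share was 28.9, 28.1 and 28.1% (RD) and 27.4, 28.2 and 28.3% (HFD), a mean of 28.2% ± 0.452 (SD, n = 6). The ranges of the sexes did not overlap, a difference that counting software shares.

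The spinous share was lower than the basal share of the same mouse in all 12 mice, at 26.8% ± 1.11 in males and 25.5% ± 0.469 in females (SD, n = 6 each). The sexes lay closer to each other there than in basal cells. The class pools a pair of clusters, of 8965 and 5668 cells in males and 15794 and 1943 in females. The share ran from 26.3 to 29.5% in the larger and from 23.1 to 25.8% in the smaller cluster of males. In females the ranges were 25.8 to 26.9% and 17.9 to 21.1%. The part of this mix in the closeness of the sexes was not tested. Terminally differentiated keratinocytes had the lowest share of the 7 classes in all 12 mice. Their share was 15.3, 17.7 and 9.90% in male RD mice and 8.33, 11.1 and 11.1% in male HFD mice. In females it was 4.56, 8.16 and 6.25% (RD) and 7.67, 6.22 and 10.1% (HFD). Without the highest doublet scores the mean of the class went from 12.2 to 8.88% in males and from 7.16 to 3.31% in females. The cells of this class were uneven: the median over cells ran from 5.58 to 16.0% among male mice and from 1.14 to 3.75% among female mice, and mitochondrial UMIs were also low there, at 1.18 to 1.59% in males and 0.566 to 0.875% in females.

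Proliferating keratinocytes (31.4% ± 1.54 in males, 25.6% ± 0.777 in females, SD, n = 6 each) and migratory keratinocytes (28.4% ± 1.30 and 24.9% ± 0.323) were below basal cells in every mouse. The Chchd10-led cells differed between the sexes in direction, at 33.6% ± 1.32 in males, below basal cells in 6 of 6 mice, and 30.3% ± 0.637 in females, above basal cells in 6 of 6 mice. These clusters were made separately in each sex and share a name from a leading gene, so they may not hold the same cells. Counting software and the filter on genes also differed between the sexes. T cell-like cells, 23 to 99 per mouse, had 25.2% ± 2.62 in males and 20.9% ± 0.982 in females.

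LC-like cells ranked sixth of the 7 classes in all 12 mice. Their share was 25.2, 25.2 and 20.1% (RD) and 18.9, 22.7 and 22.7% (HFD) in males, and 16.0, 16.6 and 17.3% (RD) and 15.8, 14.3 and 17.1% (HFD) in females. In both sexes the diet groups overlapped. The class held between 130 and 465 cells per mouse, and 4 keratin genes (Krt1, Krt5, Krt10, Krt14) that LCs should not express made up 1.30 to 2.03% of its UMIs in males and 0.338 to 0.781% in females.

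**Figure D1:**
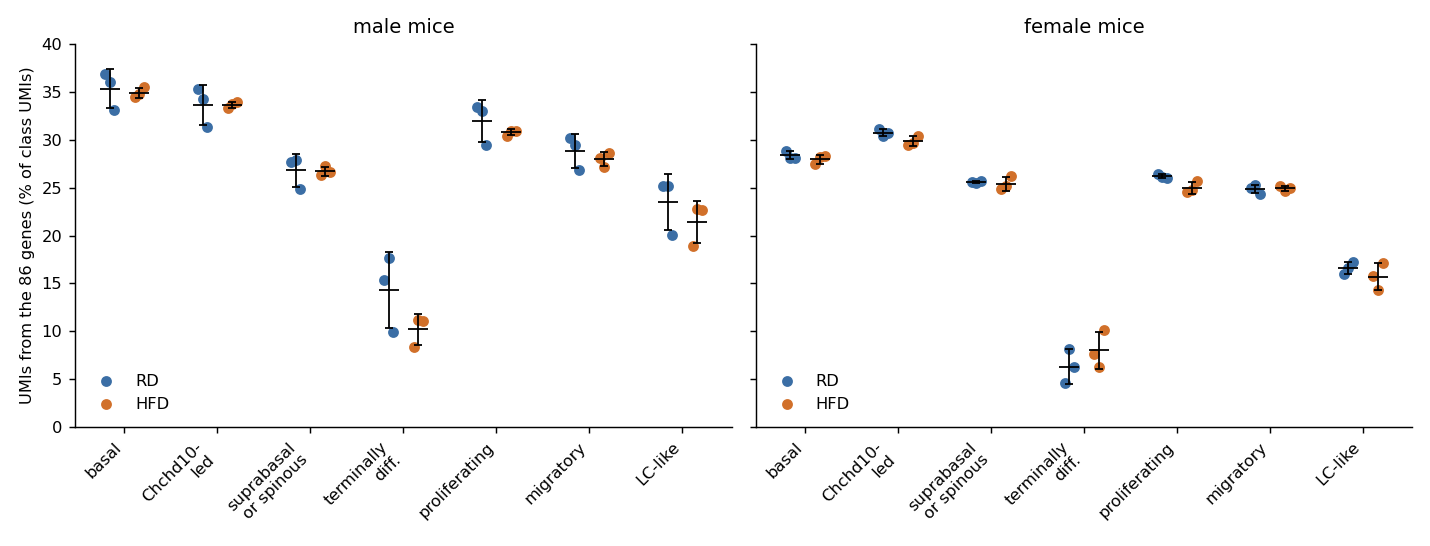
Share of all UMIs that came from the 86 ribosomal protein genes (y axis, percent) in each cell class (x axis), with 1 point per mouse, by sex and diet, and bars for the mean ± SD of 3 mice. Terminally differentiated cells lie lowest in every mouse, and basal cells lie between 33.1 and 36.9% in males and between 27.4 and 28.9% in females.

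The low share of LC-like cells remained when the cells with keratinocyte RNA were set aside. A second round of clustering separated an LC subcluster 1 (1002 male and 1739 female cells) from a subcluster that met the criterion on all 4 keratin genes (277 male and 343 female cells). In LC subcluster 1 the share was 20.8, 19.4 and 17.4% (male RD), 17.0, 18.0 and 17.7% (male HFD), 13.6, 13.1 and 14.1% (female RD) and 12.6, 11.9 and 13.6% (female HFD). All 12 of these values lay below those of the keratinocyte RNA subcluster of the same mouse, which ran from 24.4 to 29.4% in males and from 21.1 to 23.9% in females. The 4 keratin genes took at most 0.1% of the UMIs of subcluster 1 in any mouse, and 1.19 to 4.64% in the other. The keratinocyte RNA subcluster held 50.4% of the LC-like UMIs of males and 33.5% of those of females. Cells in which the 4 genes exceeded 0.5% of UMIs made up 9.23 to 24.5% of LC-like cells per mouse.

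**Figure D2:**
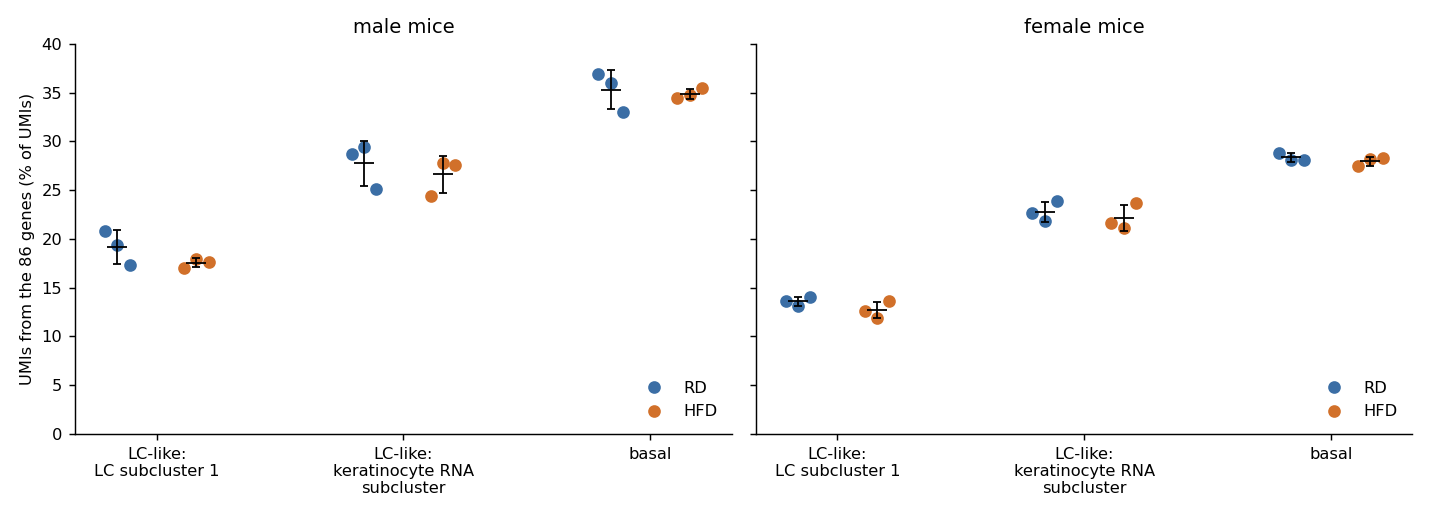
Share of UMIs from the ribosomal protein genes (y axis, percent) in LC subcluster 1, in the subcluster with keratinocyte RNA and in basal cells, with 1 point per mouse and bars for the mean ± SD of 3 mice. Subcluster 1 reaches at most 20.8% in males and 14.1% in females, below the other subcluster of every mouse.

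Single members were next compared with basal cells, gene by gene, on UMI sums per mouse and class. These sums were fitted with edgeR's quasi-likelihood test with the mouse as a block, after TMM scaling, and called at a Benjamini-Hochberg adjusted p below 0.05. TMM scales each sum by the genes that move least, so a fold change here is relative to most other genes, whereas the share above is relative to all UMIs, and both scales are named where they differ. Between 83 and 85 of the 86 members passed the filter on low counts. Rpl10l never passed, and Rpl3l and Rpl39l passed only in some fits, so these 3 are given by their UMIs and the counts below are over the other 83, which passed in every fit.

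LC-like cells had lower levels of almost the whole module. Their sums include the keratinocyte RNA subcluster, with 50.4% of the male and 33.5% of the female LC-like UMIs. No fit of LC-like against basal cells was made without it, so its part in these fold changes was not tested. In males 82 of 83 members were lower than in basal cells and 0 higher, with a median log2 fold change of -0.77 beside -0.04 for all genes tested. In females 79 of 83 were lower and 1 higher, with medians of -0.79 and -0.06. Over all genes, 32.6% were lower and 31.3% higher in males, and 38.2% lower and 35.7% higher in females. The lowest members were Rps26, a small-subunit protein near the mRNA exit channel (log2 fold change -1.17 ± 0.07 in males and -1.10 ± 0.05 in females, SE), Rpl10a of the L1 stalk (-1.08 ± 0.07 and -1.21 ± 0.06) and Rpl5, which binds the 5S rRNA and, when free, Mdm2 (-0.99 ± 0.06 and -1.18 ± 0.05). The zinc-finger protein gene Rps29 lay closest to its basal level among the core members, at -0.16 ± 0.06 in males and -0.03 ± 0.05 in females, where it was not called. These fold changes went with the length of the coding sequence, with Spearman's rho of -0.44 in males and -0.505 in females. Rps29 has 168 coding nucleotides, Rps26 345, Rpl10a 648 and Rpl5 891. The member called higher in females was Rpl7l1 (0.26 ± 0.06, edgeR adjusted p = 0.0012), which was not called in males (-0.12 ± 0.09, edgeR adjusted p = 0.24).

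A pair of rare paralogues had more UMIs per total in female LC-like cells than in basal cells, and no test is given for them because they passed the filter on low counts through the LC-like cells. Rpl3l, the striated muscle paralogue of Rpl3, had 17, 13 and 17 UMIs in the LC-like cells of the RD females and 9, 4 and 7 in those of the HFD females, in sum 3.77 CPM (the gene's UMIs scaled to the total of the class) against 0.18 CPM in basal cells, from 67 and 30 UMIs. In male LC-like cells it had 10 UMIs, of which 9 came from RD mice, against 1 in basal cells. Rpl39l, a paralogue of Rpl39 best known from the testis, had 44 UMIs in female LC-like cells, spread unevenly as 2, 0 and 13 (RD) and 20, 1 and 8 (HFD), or 2.48 CPM in sum, against 14 UMIs or 0.0838 CPM in basal cells. These counts of a few UMIs per mouse limit how precisely either level is known.

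Migratory keratinocytes also had lower levels of nearly every member: 83 of 83 in males (median log2 fold change -0.47) and 80 of 83 in females (-0.23), with 0 and 1 higher. Of all genes tested, 30.4% were lower and 32.4% higher in males, and 29.4% and 31.2% in females. Rpl11, Rps26, Rplp0 and Rps6, the S6 kinase target that names the pathway, were among the 5 lowest members in both sexes, at -0.61 to -0.67 in males and -0.39 to -0.45 in females. The member called higher in females was Rps27l, the p53-responsive paralogue of Rps27 (0.15 ± 0.04, SE, edgeR adjusted p = 0.0011), which was also the least reduced in males (-0.24 ± 0.03).

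In proliferating keratinocytes 80 of 83 members were lower and 1 higher in males (median -0.24), and 65 of 83 were lower and 6 higher in females (median -0.11). The background was 28.5% lower and 28.3% higher in males, and 32.2% and 31.4% in females. Rps26 was again the lowest member (-0.51 ± 0.02 in males, -0.36 ± 0.02 in females, SE), followed by Rps27rt and Rps27, which share sequence. Rpl7l1 was the member called higher in males (0.08 ± 0.03) and was higher in females too (0.13 ± 0.03), and Rps19bp1 was the highest called in females (0.30 ± 0.03).

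In female spinous cells the 2 scales differed in direction. The share of UMIs was below that of basal cells in all mice, yet relative to most other genes 82 of 83 members were higher and 0 lower (median log2 fold change 0.29). In males 36 of 83 were higher and 20 lower (median 0.02), a share of higher members close to that of all genes. The medians of all genes tested were -0.06 in males and -0.08 in females. Of all genes, 41.6% were higher and 45.5% lower in males, and 38.9% and 44.1% in females. The leading members in both sexes were Rpl22l1 (0.49 ± 0.03 in males and 0.59 ± 0.03 in females, SE), Rpl23a (0.48 ± 0.02 and 0.63 ± 0.02) and Rps29 (0.44 ± 0.03 and 0.65 ± 0.02). Rps27rt and Rps27 were the lowest 2 members in males (-0.33 ± 0.04 and -0.22 ± 0.02) and the lowest in females as well, at -0.03 ± 0.04 and 0.08 ± 0.02.

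In Chchd10-led cells 70 of 83 members were higher and 3 lower in males (median 0.10), and 82 of 83 were higher and 0 lower in females (median 0.29), against 37.2% higher and 37.4% lower of all genes in males and 35.5% and 36.6% in females. In males this direction is opposite to that of the share of UMIs. The members called lower in males were Rps27 (-0.10 ± 0.01, SE), Rpl13 (-0.10 ± 0.01) and Rps27rt (-0.08 ± 0.03).

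In terminally differentiated keratinocytes the members were called in both directions, and fewer of them than in the other classes. Their sums include the cells with the highest doublet scores, without which the share went from 12.2 to 8.88% in males and from 7.16 to 3.31% in females. No fit against basal cells was made without them. Their part in these fold changes and in the make-up of the member UMIs was not tested. In males 11 of 83 members were higher and 31 lower (median -0.14, beside -0.22 for all genes tested), and in females 5 were higher and 39 lower (median -0.26, beside -0.28), against 35.9% higher and 43.1% lower of all genes in males and 25.3% and 33.3% in females. The female counts depended on the scaling: with RLE factors, which moved the median of all genes to -0.13, 6 members were higher and 6 lower, and with DESeq2 13 were higher and 33 lower. In males RLE factors gave 13 and 22, and DESeq2 gave 19 and 36. The shares of all genes given here are those of the TMM fit. After TMM scaling the members' medians were no lower than those of all genes, while the share of UMIs was less than that of basal cells in every mouse. Rpl22l1, the paralogue that can take the place of Rpl22, was the highest member in both sexes (1.05 ± 0.08 in males, 1.01 ± 0.12 in females, SE). Rpl22 itself was lower (-0.47 in males, -0.43 in females). As a part of all member UMIs, Rpl22l1 went from 0.248% in basal to 0.541% in terminally differentiated cells of males and from 0.264 to 0.621% in females, while Rpl22 went from 0.611 to 0.463% and from 0.845 to 0.721%. Rpl41 (0.58 ± 0.09 and 0.45 ± 0.12), Rps24 (0.50 ± 0.09 and 0.35 ± 0.12), Rpl29 (0.48 ± 0.09 and 0.33 ± 0.12) and Rps29 (0.62 ± 0.09 and 0.29 ± 0.12) were the other members in the top 5 of both sexes. The lowest member in males was Rps19bp1 (-0.86 ± 0.15).

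**Figure D3:**
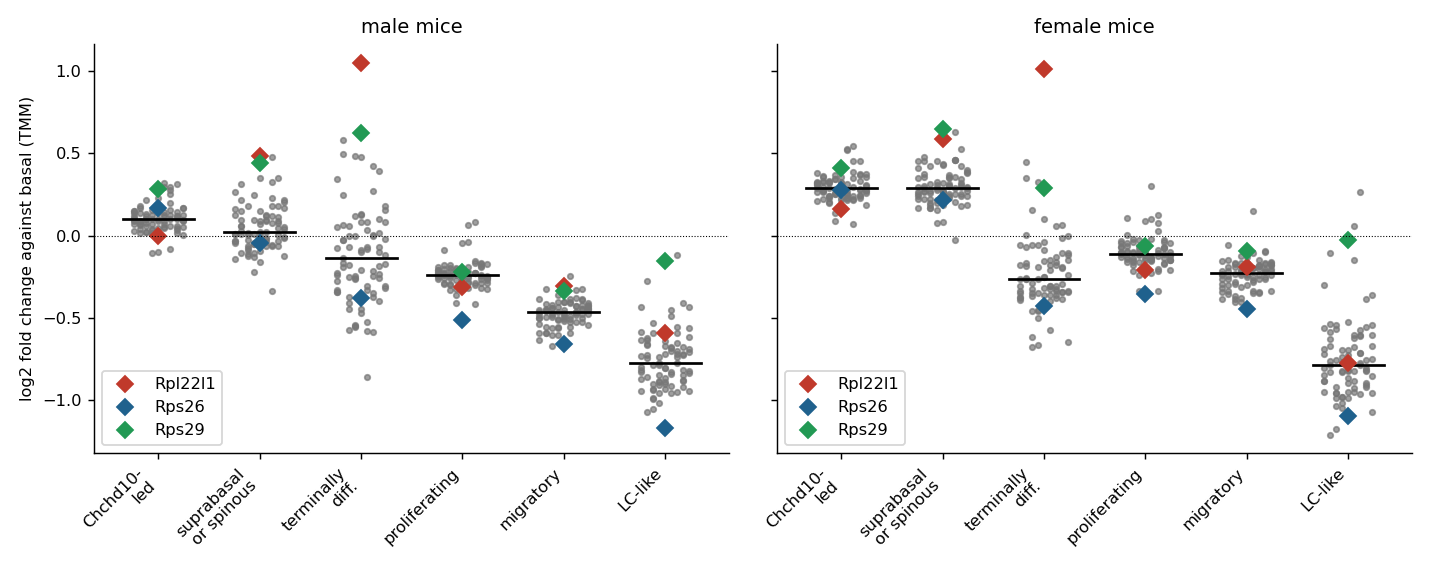
Log2 fold change of each ribosomal protein gene against basal cells of the same mice (y axis, from edgeR after TMM scaling) by cell class (x axis), with 1 grey point per member, a line at the median and 3 members in colour. Rpl3l and Rpl39l are not drawn. The medians are lowest in LC-like cells (-0.77 in males, -0.79 in females), and Rpl22l1 is the highest member in terminally differentiated cells of both sexes.

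Of the 10 most abundant members, 7 were the same in all 7 classes of a sex, with Rplp0, Rplp1, Rpl13 and Rpl23 among them in both sexes. Rplp0, a stalk protein, was first or second by UMIs in every class of both sexes, and the 10 most abundant members gave between 22.1 and 24.7% of the member UMIs of any class. In terminally differentiated cells Rplp0 had 3.94% of member UMIs in males and 2.97% in females, followed by Rps24 (3.00% and 2.95%). Rps26 went from 0.829% in basal to 0.633% in LC-like cells of males and from 1.09 to 0.867% in females, and Rps29 from 0.796 to 1.23% and from 0.703 to 1.18%.

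Other translation genes were counted by list, from the same sums, which in LC-like cells include the keratinocyte RNA subcluster. Those of terminally differentiated cells include the cells with the highest doublet scores. In LC-like cells, ribosome biogenesis genes were lower in 32 of 37 and higher in 1 in males, and lower in 33 and higher in 2 in females, beside 32.6% and 38.2% of all genes lower. Genes of translation elongation and other 5′TOP mRNAs were lower in 11 of 12 in males and 10 of 12 in females, among them Npm1 (-1.16 ± 0.07 and -1.11 ± 0.06, SE), Eef2 (-0.79 ± 0.07 and -0.82 ± 0.06) and Eef1a1 (-0.62 ± 0.06 and -0.70 ± 0.05). Initiation factors were lower in 24 of 29 and 23 of 29, and mitochondrial ribosomal protein genes in 69 of 78 and 59 of 78. Of the ribosomal proteins outside the symbol rule, Rack1 was lower in both sexes (-0.94 ± 0.07 and -0.99 ± 0.05), and Fau was not called (-0.10 ± 0.06 and 0.04 ± 0.05).

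In terminally differentiated cells the biogenesis genes were lower in 33 of 37 in males (median log2 fold change -1.16) and 29 of 37 in females (-0.60), with 3 higher in each sex, beside 43.1% and 33.3% of all genes lower. Among them were the nucleolar genes Ncl (-1.55 ± 0.13 and -0.85 ± 0.11, SE) and Fbl (-1.18 ± 0.12 and -0.80 ± 0.12). In spinous cells 8 biogenesis genes were higher and 27 lower in males (median -0.39), and 13 and 12 in females (-0.01), beside 45.5% and 44.1% of all genes lower. The elongation and 5′TOP list had 4 of 12 genes higher and 6 lower in male terminally differentiated cells, and 2 and 5 in female ones. Initiation factors had 9 of 29 higher and 14 lower there in males, and 8 and 14 in females. The poly(A)-binding protein gene Pabpc1 was higher in the terminally differentiated class (0.95 ± 0.11 and 2.21 ± 0.13). In migratory cells, biogenesis genes were lower in 35 and 34 of 37 and elongation genes in 12 and 10 of 12, beside 30.4% and 29.4% of all genes lower. Of the 78 mitochondrial ribosomal protein genes, 63 were higher and 5 lower in male Chchd10-led cells and 76 and 1 in female ones (all genes 37.2% and 35.5% higher). In proliferating cells 44 were higher and 8 lower in males and 65 and 1 in females (28.3% and 31.4% higher), and in spinous cells 47 and 22 in males and 55 and 12 in females (41.6% and 38.9% higher). The direction was opposite in migratory cells, with 0 higher and 64 lower in males and 9 and 45 in females (30.4% and 29.4% of all genes lower). Terminally differentiated cells had 17 higher and 45 lower in males and 9 and 25 in females (43.1% and 33.3% lower). Of the 17 genes of mTORC1 and 5′TOP control, 7 were higher and 5 lower in male LC-like cells, and 6 higher and 8 lower in female ones, beside 31.3% and 35.7% of all genes higher.

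The diet groups were close in most classes. The share of UMIs overlapped between RD and HFD mice in 12 of the 14 combinations of class and sex. In LC-like cells the difference of HFD minus RD was -2.07 percentage points in males (SE 2.12) and -0.901 in females (SE 0.886), close to the standard error in both. In terminally differentiated cells it was -4.11 (SE 2.48) in males and 1.68 (SE 1.54) in females. These 2 values depended on the processing: the male one was -1.20 without the highest doublet scores, -1.27 with the median over cells and -2.40 with the members kept in the clustering, and the female one was 0.333 with at most 10% mitochondrial UMIs and 0.728 with the median over cells. Among single mice left out, the male value ran from -2.42 without RD male 2 to -6.31 without RD male 3, and the female one from 0.625 without HFD female 3 to 2.60 without RD female 2.

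The groups did not overlap in 2 female classes. In proliferating cells the RD females had 26.4, 26.2 and 26.0% and the HFD females 24.5, 24.7 and 25.7%, a difference of -1.21 points (SE 0.372). In Chchd10-led cells they had 31.1, 30.4 and 30.7% and 29.4, 29.7 and 30.4%, a difference of -0.906 points (SE 0.364), where the lowest RD and the highest HFD mouse were equal after rounding. Mitochondrial UMIs in these Chchd10-led cells were 2.18, 2.23 and 2.20% (RD) and 2.31, 2.89 and 2.24% (HFD), all HFD mice above all RD mice, whereas in the proliferating cells they overlapped (1.96, 2.09 and 2.09% against 2.14, 2.66 and 2.04%), and their part in the share was not tested. The separation in Chchd10-led cells was lost with the median over cells, with the denominator without mitochondrial, keratin, Lce and Malat1 UMIs and with the members kept in the clustering, and that in proliferating cells with the median over cells. In female basal cells the HFD mice came to lie below the RD mice with at most 10% mitochondrial UMIs and with the members kept in the clustering. No test was made of a share over the members.

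Gene by gene, 0 of 83 members differed between HFD and RD in any of the 7 male classes (edgeR, adjusted p below 0.05). At an unadjusted p below 0.05 it was 0 to 8 per class, for which no share of all genes is given. The background at the adjusted threshold was 0.0452% of all genes in migratory cells and 0.0% in basal, Chchd10-led, spinous, terminally differentiated, proliferating and LC-like cells. DESeq2 called 1 member lower in male terminally differentiated cells and 0 in the other male classes. In that class 1 member was also called with the replicate block, without the filter on low counts and with at most 10% mitochondrial UMIs. Without RD male 3 the count there was 8 members, all lower, beside 1273 of 10130 genes called. In females, 1 of 83 members was called in spinous cells, where 6.1% of all genes were called. In the other female classes 0 of 83 were called, against 1.69% of all genes in basal cells, 2.21% in Chchd10-led, 0.0% in terminally differentiated, 2.76% in proliferating, 0.694% in migratory and 0.0759% in LC-like cells. In these classes 1 to 8 members had an unadjusted p below 0.05, again without a share of all genes at that threshold. DESeq2 called 3 members in female spinous cells, 1 higher and 2 lower, and 0 in the other female classes. The shares of all genes given for each class are those of edgeR.

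A lean of the estimates to lower values on HFD was seen in several classes. It held for 75 of 83 members in male terminally differentiated cells (median log2 fold change -0.24), 65 in male proliferating (-0.04), 77 in female proliferating (-0.08) and 73 in female Chchd10-led cells (-0.07). The lean was the other way in female terminally differentiated cells, with 20 of 83 below 0 (0.14), and in male Chchd10-led (21, median 0.05), basal (26, 0.02) and spinous cells (29, 0.03). It was closer to even in female basal (40 of 83 below 0) and migratory (48) and in male migratory cells (49), with 59 in female spinous cells. The median of all genes tested was -0.03 in male and 0.02 in female terminally differentiated cells. In the other keratinocyte classes it lay between -0.0041 and 0.0066. The share of all genes with an estimate below 0 is not given. In LC-like cells, 79 of 83 members had a lower estimate on HFD in males (median log2 fold change -0.15, beside 0.01 for all genes tested) and 67 of 83 in females (-0.07, beside 0.00). The median SE of a member was 0.17 in males and 0.11 in females, and the members of a mouse share its library, so the counts are not independent signs. In male LC-like cells only Rps27rt did not overlap between the diets (26.2, 20.1 and 18.3 CPM after TMM scaling on RD against 37.8, 28.5 and 39.3 on HFD, edgeR adjusted p = 0.763). Most windows at its 3′ end also occur in Rps27, so its count is less certain. Keratinocyte RNA varied in the same cells: the 4 keratin genes ran from 1.43 to 2.03% in male RD and from 1.30 to 1.65% in male HFD mice, and from 0.479 to 0.740% and from 0.338 to 0.781% in females. None of the 4 was called in either sex. Mitochondrial UMIs in LC-like cells were 2.62, 2.68 and 2.56% on RD and 3.07, 3.20 and 3.02% on HFD in males, and 1.31, 1.53 and 1.52% and 1.69, 1.87 and 1.57% in females, with all HFD mice above all RD mice in both sexes. The part of either in the member values was not tested. Within LC subcluster 1 the difference of the share was -1.65 points in males and -0.903 in females, with overlapping groups.

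**Figure D4:**
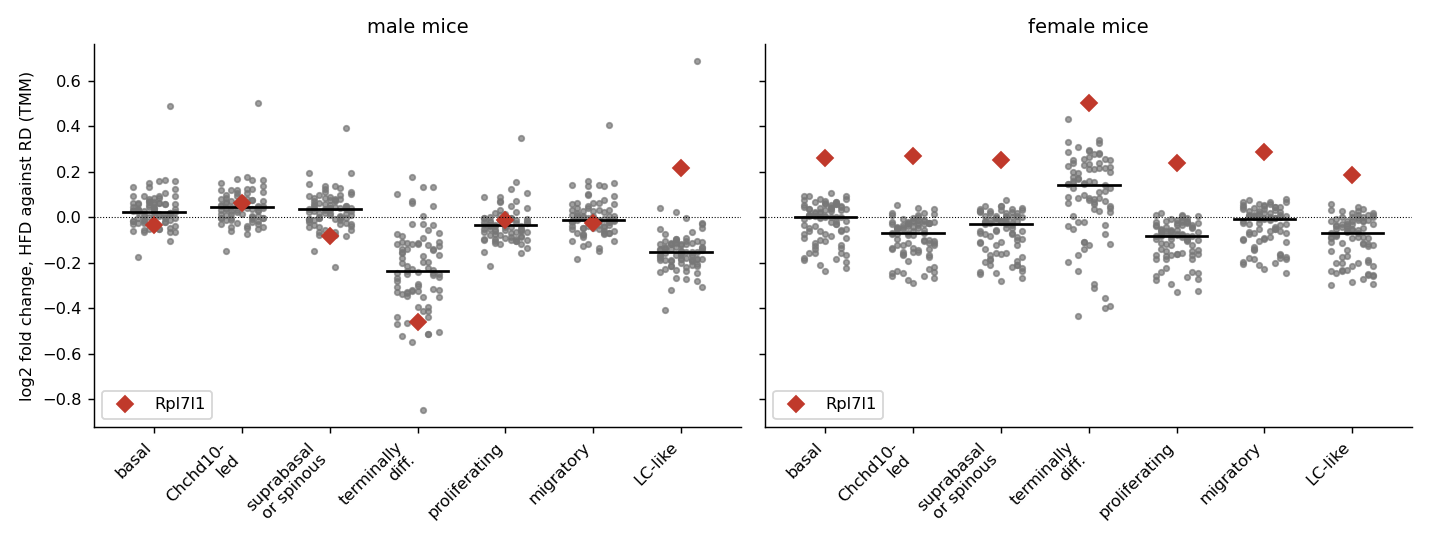
Log2 fold change of each ribosomal protein gene, HFD against RD (y axis), by cell class (x axis) in males and females, with 1 grey point per member, a line at the median and Rpl7l1 in colour. Rpl3l is not drawn. The medians lie between -0.24 and 0.05 in males and between -0.08 and 0.14 in females, and Rpl7l1 in female spinous cells is the only member called.

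The called member was Rpl7l1 (ENSMUSG00000063888, chr17:46773907-46782672, minus strand, GRCm38). In female spinous cells it had 52.9, 51.8 and 54.7 CPM in RD mice and 59.8, 61.9 and 68.3 CPM in HFD mice. All 3 HFD mice were above all 3 RD mice, with a log2 fold change of 0.25 ± 0.06 (SE, edgeR adjusted p = 0.0417). The call was lost with the replicate block (edgeR adjusted p = 0.0525), with at most 10% mitochondrial UMIs (0.139) and without RD female 1 (0.149), RD female 2 (0.146), RD female 3 (0.115) or HFD female 3 (0.112), while the log2 fold change stayed between 0.19 and 0.29 under all settings tried. In 5 other female classes all HFD mice were above all RD mice as well, with log2 fold changes from 0.24 to 0.50 and edgeR adjusted p from 0.0597 to 0.533. Of the 7261 genes tested in all 7 female classes, 3.08% were higher on HFD in this sense in 5 or more, and Rpl7l1 was the only member among them. In female LC-like cells the groups overlapped (67.5, 64.6 and 82.6 against 85.6, 74.1 and 85.4 CPM). In males the gene went the other way in terminally differentiated cells (15.6, 17.2 and 15.7 CPM on RD, and 10.9 to 12.4 on HFD, log2 fold change -0.46 ± 0.15, edgeR adjusted p = 0.0946), and its basal groups overlapped.

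The interaction of diet and sex was called for 0 members in each of the 7 classes, the smallest edgeR adjusted p being that of Rpl7l1 in spinous cells (0.061, female minus male log2 fold change 0.33 ± 0.09, SE), and 0 to 5 members per class had an unadjusted p below 0.05. DESeq2 called 1 member in spinous and 3 in terminally differentiated cells. No share of all genes is given for these or for the unadjusted counts. With edgeR the background over all genes at the adjusted threshold was 0.0686% in basal, 0.0687% in Chchd10-led, 1.66% in spinous and 1.18% in terminally differentiated cells. It was 0.0428% in proliferating, 0.257% in migratory and 0.0% in LC-like cells.

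Among members that were not called, Rps25 and Rps12 of the small subunit and Rpl23a of the large subunit had all 3 HFD females below all 3 RD females in each of the 7 classes, and they are described for that pattern. Rps25, a small-subunit protein used by some viral and cellular internal ribosome entry sites, had 1611, 1525 and 1681 CPM in LC-like cells of RD females and 1359, 1263 and 1473 CPM in those of HFD females (log2 fold change -0.23 ± 0.11, SE, edgeR adjusted p = 0.57). In spinous cells it had 2298, 2263 and 2329 against 2107, 1908 and 2042 CPM (-0.19 ± 0.06, edgeR adjusted p = 0.105). The groups did not overlap in either class, and the same held in the other 5 female classes.

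Rpl23a, which lies at the exit of the nascent peptide, had 2556, 2682 and 2761 CPM on RD and 2437, 2205 and 2362 CPM on HFD in female spinous cells (-0.19 ± 0.07, SE, edgeR adjusted p = 0.109). Rps12, of the small subunit, had 6069, 6173 and 5959 against 5531, 5357 and 5507 CPM in female Chchd10-led cells (-0.15 ± 0.07, edgeR adjusted p = 0.26). Both had all HFD mice below all RD mice in each of the 7 female classes, and neither was called in any. In male LC-like cells the diet groups of all 3 genes overlapped.

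The number of members with all 3 HFD females below all 3 RD females was 9 of 83 in basal cells (11.1% of all genes), 30 of 83 in Chchd10-led cells (11.8%), 15 of 83 in spinous cells (14.9%), 4 of 83 in terminally differentiated cells (5.93%), 21 of 83 in proliferating cells (13.2%), 11 of 83 in migratory cells (11.3%) and 7 of 83 in LC-like cells (7.49%). Those with all 3 HFD females above all 3 RD females were 6 in basal (11.3% of all genes), 1 in Chchd10-led (11.2%), 1 in spinous (15%), 3 in terminally differentiated (8.13%), 1 in proliferating (12%), 2 in migratory (9.1%) and 0 in LC-like cells (7.59%). In males, in the same order of classes, 0, 0, 2, 6, 0, 0 and 0 members were lower (6.3%, 5.97%, 7.6%, 17.2%, 6.48%, 5.63% and 5.19% of all genes) and 3, 4, 1, 1, 1, 1 and 1 were higher (6.26%, 5.64%, 7.46%, 13.8%, 6.59%, 6.06% and 6.02%). As a share of the members tested, the female count of lower members lay close to that of all genes in basal, terminally differentiated, migratory and LC-like cells, slightly above it in spinous cells and farther above it in Chchd10-led and proliferating cells. The classes share mice and libraries, so these counts are not independent. Altogether 8 of 83 members (9.64%) were lower in this sense in 5 or more female classes, among them Rpl22, Rpl32 and Rps15, beside 4.23% of the 7261 genes tested in all 7 classes. In all 7 it was 3 members (3.61%), Rps25, Rpl23a and Rps12, beside 9 genes (0.124%). In females 41 of 83 members (49.4%) never differed in this way in either direction, beside 28.5% of those genes. In males 70 of 83 (84.3%) never did, beside 35.9% of 7448 genes, and Rpl7a was higher on HFD in 4 classes, as 1.66% of genes were in 4 or more.

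The members' diet estimates went with the length of their coding sequence. The coding sequence ran from 75 nucleotides (Rpl41) to 1257, with a median of 453. Over the 83 members tested, Spearman's rho of the HFD against RD log2 fold change with coding length was 0.71 in basal, 0.731 in Chchd10-led, 0.746 in spinous, 0.595 in terminally differentiated, 0.69 in proliferating, 0.787 in migratory and 0.725 in LC-like cells of females. In males it was positive in all 7 classes too, from 0.108 in terminally differentiated to 0.527 in Chchd10-led cells. It is a correlation across genes of the same 6 libraries, so the members are not independent and no p is given. Members under 300 nucleotides had a median log2 fold change of -0.22 in female spinous cells (n = 11) and those of 600 or more 0.01 (n = 23), and in LC-like cells the medians were -0.25 (n = 11) and -0.02 (n = 23). These limits were chosen after the data were seen.

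Single libraries also differed in this property. The ratio of UMIs of members under 300 nucleotides (12 genes, among them Rps29, Rpl38, Rpl41 and Rps27) to UMIs of members of 600 or more (25 genes) in basal cells was 0.318, 0.219 and 0.311 in RD females and 0.255, 0.212 and 0.258 in HFD females. In males it was 0.312, 0.191 and 0.204 on RD and 0.215, 0.211 and 0.266 on HFD. The diet groups overlapped in both sexes, and RD females 1 and 3 and RD male 1 were the highest mice of their sex. For genes outside the module the ratio in basal cells ran from 0.0735 to 0.0809 among females, where the diet groups overlapped. Among males it was 0.1403, 0.1126 and 0.1246 on RD and 0.1255, 0.1197 and 0.1368 on HFD. In female Chchd10-led cells it was 0.1204, 0.1153 and 0.1209 on RD and 0.1103, 0.1026 and 0.1128 on HFD. All HFD females were also below all RD females in spinous, proliferating, migratory and LC-like cells. In female terminally differentiated cells the groups overlapped. Without RD male 1, rho in males went from 0.402 to -0.649 in basal cells and was negative in all 7 classes, and without RD male 2 it rose to 0.693 in basal cells. In females it stayed positive, between 0.478 and 0.792, whichever mouse was left out. A part of library preparation in the ordering by length was not tested.

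**Figure D5:**
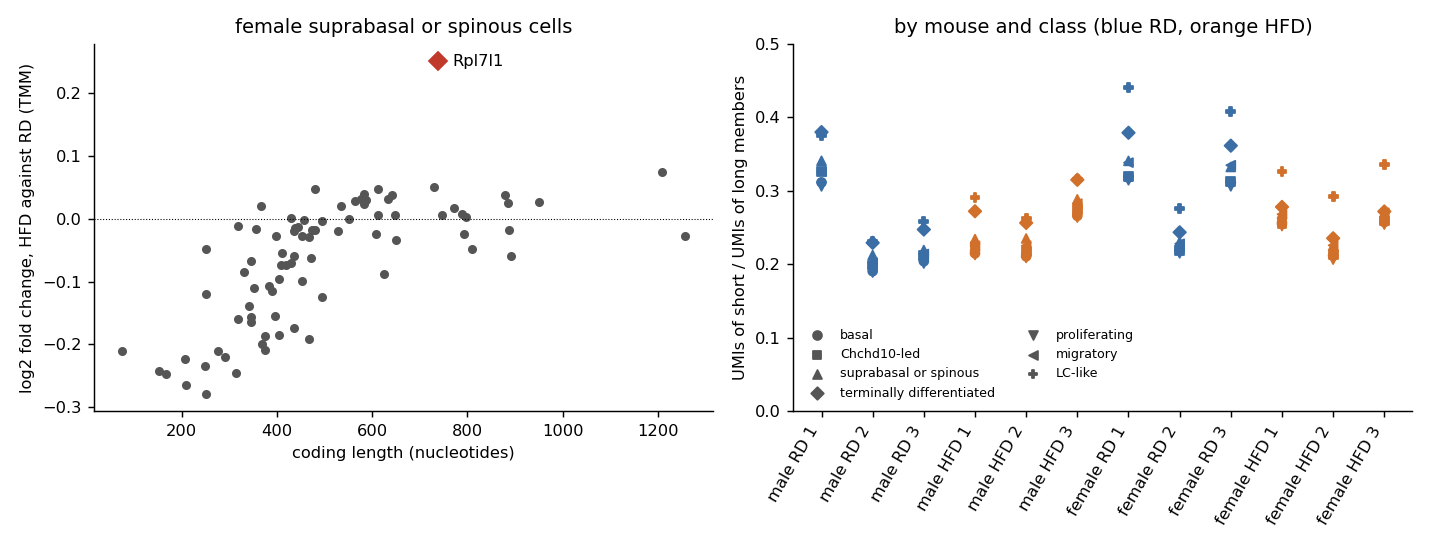
Left, HFD against RD log2 fold change in female spinous cells (y axis) against coding length in nucleotides (x axis), with 1 point per member (Spearman's rho 0.746 over 83 members) and Rpl7l1 marked. Right, ratio of UMIs of members under 300 nucleotides to members of 600 or more, by mouse (x axis, blue RD, orange HFD) with 1 symbol per cell class, where the basal values run from 0.191 to 0.318.

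The lists of other genes gave few calls for the diet. In males 0 genes of any list were called. In females Eif4ebp2, an inhibitor of cap-dependent initiation that mTORC1 phosphorylates, was lower on HFD in basal (-0.39 ± 0.06, SE), Chchd10-led (-0.32 ± 0.07), spinous (-0.40 ± 0.06) and proliferating cells (-0.40 ± 0.06), with edgeR adjusted p from 0.0088 to 0.0301. Pdcd4, an inhibitor of the helicase Eif4a that S6 kinase marks for degradation, was lower in spinous (-0.30 ± 0.07), proliferating (-0.51 ± 0.08) and migratory cells (-0.43 ± 0.08), with edgeR adjusted p from 0.0145 to 0.0291. These were all the calls among the 17 genes of mTORC1 and 5′TOP control, beside 0.606% of all genes lower in basal, 1.14% in Chchd10-led, 3.03% in spinous, 1.34% in proliferating and 0.441% in migratory cells. Ribosome biogenesis genes had 2 higher (Ebna1bp2 at 0.31 ± 0.06 and Bop1 at 0.38 ± 0.07) and 1 lower (Ubtf, -0.29 ± 0.07) of 37 in spinous cells. The elongation list had 1 higher of 12 there, the nucleosome assembly gene Nap1l1 (0.26 ± 0.06), and mitochondrial ribosomal protein genes had 6 higher and 0 lower of 78, where 3.07% of all genes were higher. In basal cells 4 of the 78 were higher (1.09% of all genes), in Chchd10-led cells 3 (1.07%), in proliferating cells 2 (1.42%) and in migratory cells 1 (0.253%). Initiation factors, the ribosomal proteins outside the symbol rule and the 4 keratin genes had 0 calls in any class of either sex.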

How the data were processed

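The authors deposited, per mouse, whole-number UMI counts per gene and barcode, without normalization. The labels name Cell Ranger 7.2.0, Seurat 5.0.0 and mm10/GRCm38, while the file headers name version 6.1.0 for males. Whether intron reads were counted is not given in the sources used here. As in the study's methods, barcodes were dropped below 200 genes (males) or 500 genes (females), above 6000 genes or above 5% mitochondrial UMIs. Cells were clustered per sex without the members with scanpy 1.11.5 and leidenalg 0.10.2 (2000 variable genes, 10 principal components, 20 neighbours). At least 3 markers past the threshold were needed to name a cluster. That number alone did not suffice, as the Dynap-led clusters met it for basal markers and were left unnamed. Doublets were left in the main results. The members and gene lists were chosen with earlier results of these data known.

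Deposited counts were summed per mouse and class and compared with edgeR 4.0.16 (R 4.3.3) by its quasi-likelihood test after TMM normalization and filtering of low counts, with Benjamini-Hochberg adjustment over all genes tested and a threshold of 0.05. Member counts are over the 83 that passed the filter in every fit. A class against basal cells had the mouse as a block. Each mouse is 1 sample, so p-values of the diet comparisons are relative to the spread between 3 mice per group. Those of a class against basal cells are relative to the spread of the within-mouse differences over the 6 mice of a sex. In both, edgeR draws the dispersion of each gene toward a trend over all genes. The SE of an edgeR log2 fold change was derived from the fold change and its F statistic. The study's test over cells was not used because cells are not replicates. In summed counts, fewer transcripts of a gene and more of the others cannot be told apart. The steps were checked on simulated counts. Alternatives were DESeq2 1.42.0, RLE factors, other filters, the median over cells, other denominators and leaving out each mouse. Outside the setting with a replicate block, mice were not treated as pairs by replicate number. No fit had all 3 correlations of same-numbered mice above 0.1, the range over 14 fits being -0.331 to 0.269. In 2 of the 14 every mouse correlated best with its own number, so these correlations do not settle whether the mice were paired.

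Named members were, per comparison, up to 5 called members in each direction with the largest fold change, the 3 farthest above and below the members' median, the 3 with the most and the fewest UMIs, and a fixed list of stalk proteins, paralogues and members with roles outside the ribosome. Rps25, Rpl23a, Rps12, Rpl10a and the pattern by coding length were chosen after their values were seen. Coding lengths came from GENCODE vM21. Some genes are not reported here.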

Additional observations from a re-analysis of the deposited data

How the results depend on the processing

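Of the alternative settings for the count of members called between the diets, 179 gave the main count and 18 another. The shares of all genes called that are given above come from the main edgeR fits. Apart from the fit without male RD replicate 3, counts under other settings have no such share beside them. The only call in the main results, Rpl7l1 in female spinous cells (count 1), became 3 with DESeq2, 0 with at most 10% mitochondrial UMIs and 0 with the replicate block, and ran from 0 to 1 when single mice were left out. In male terminally differentiated cells the count of 0 became 1 with DESeq2, 1 without the filter on low counts, 1 with at most 10% mitochondrial UMIs and 1 with the replicate block, and ran from 0 to 8, the highest being without male RD replicate 3. Without the filter on low counts it became 1 in male Chchd10-led, 1 in female basal, 5 in female Chchd10-led and 2 in female proliferating cells. With single mice left out it ran from 0 to 1 in female proliferating and from 0 to 1 in female migratory cells. For the interaction, DESeq2 gave 1 in spinous and 3 in terminally differentiated cells. The replicate block changed no other call. In 2 of 14 fits every mouse correlated best with the mouse of its own number.

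Against basal cells, 203 counts kept within 1.5 times the main one and 13 did not. DESeq2 gave 12 members lower in male spinous cells, 19 higher in male terminally differentiated, 0 higher in male proliferating and 13 higher in female terminally differentiated cells. RLE factors gave 6 members lower in female terminally differentiated cells. The cause of these and the other shifts given here was not tested. With single mice left out, the higher count ran from 0 to 2 in male proliferating and from 2 to 5 (lowest without female RD replicate 3) in female terminally differentiated cells, and the lower count from 24 (without female HFD replicate 2) to 34 in the latter. The sign turned for Rps29 in female LC-like cells with RLE factors (8.5e-05), and for Rps27rt in female spinous cells with RLE factors (0.015), with DESeq2 (0.024) and without female HFD replicate 2 (0.0083, range -0.058 to 0.0083). None of these turned values was called in the main results.

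The difference of the share between diets moved by less than the standard deviation of mice in all 157 alternatives, although in terminally differentiated cells it changed several-fold. The share minus the basal share, in percentage points, moved by more than that spread in 25 of 135. With the median over cells it was -4.53 in male proliferating, -6.09 in male migratory, -16.2 in male LC-like, -2.22 in female spinous, -26.4 in female terminally differentiated and -14.6 in female LC-like cells. With a denominator without mitochondrial, keratin, Lce and Malat1 UMIs it was -4.26 in male proliferating, -7.28 in male migratory and -2.06 in female spinous cells. With at most 10% mitochondrial UMIs it was -2.15 in male Chchd10-led, -4.05 in female spinous, -17.8 in female terminally differentiated and -4.07 in female migratory cells. With the members kept in the clustering it was -2.45 and 1.46 in male and female Chchd10-led, -19.4 in male terminally differentiated and -3.21 in female spinous cells. Without the highest doublet scores it was -26.3 and -25.0 in male and female terminally differentiated and -16.8 and -14.9 in male and female LC-like cells. In LC-like cells it was -17.0 and -15.1 without cells with keratin RNA and -16.7 and -15.0 in subcluster 1 alone, an alternative chosen after seeing the data. All of these kept the direction of the main value.

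The median standard error of a member's diet log2 fold change ran from 0.07 in female spinous to 0.25 in female terminally differentiated cells, and differences of nearly 3 times the standard error, such as those of Rps25 and Rpl23a in female spinous cells, were not called with 3 mice per group. Rpl3l, Rpl39l and Rpl10l are limited by counting.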
